A study of Populus tremula x Populus alba with 3 samples.

Results

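The genes described here carried a hypermethylated region in their transcribed part in the CHH context alone, where H is A, C or T. They were chosen from the authors' deposited tables as the genes in the transcribed region CHH table that are in neither the CG nor the CHG transcribed region table and in no promoter table. This gave 42 genes of 577 listed in all, and 42 of the 123 genes of the CHH table. The choice used the authors' methylation calls, and every listed gene had also passed their expression threshold, so the absence of CG and CHG regions from these genes is how they were picked and not a result. CHH-only genes are called so below.

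The material was the knockdown lines KD2 and KD5, in which RNA interference targets PtaDML10, and wild type (WT), all in the hybrid poplar clone INRA 717-1B4 (Populus tremula x Populus alba). Each genotype was 1 pool of 15 apical buds from 15 plants and 1 whole genome bisulfite library (bisulfite turns unmethylated cytosines into uracil, read as thymine). All 3 genotypes grew 4 weeks in long days (16 h light, 21 °C), 12 weeks in short days (8 h light, 19 °C) and 4 weeks in short days at 4 °C, and buds were taken before visible bud break. The promoter that drives the RNA interference construct is not given in the sources used here. With 1 library per genotype, a methylation difference cannot be set against replicate error. Sequencing depth is unknown.

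Cytosine methylation in plants occurs in CG, CHG and CHH contexts. CG and CHG sites are symmetrical, so the old strand can guide methylation of the new one after replication, whereas CHH methylation has to be set again each time, in Arabidopsis by small RNA-directed methylation and by chromomethylase. DEMETER-like proteins such as the product of PtaDML10 are glycosylases that cut out 5-methylcytosine. In Arabidopsis, CG methylation is common inside the bodies of expressed genes, while CHH methylation is best known from transposons and repeats.

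What was measured for each gene is listed in the authors' deposited tables: an expression logFC, a logCPM (the average expression level, counts scaled to library size, on a log scale), a p-value, an FDR, and the parts of the gene model beside the methylated region. Both log values were read as log2. The logFC compares the knockdown lines with WT, but the tables do not say which is on top, so genes are given as having a positive or a negative logFC and not as induced or repressed. The size of the methylation gain and the position of the region are not in the transcribed region tables, so neither can be given for a CHH-only gene. The listed features were read as those that the region overlaps. No annotation among the 577 genes holds the words DEMETER or DML (0 genes), so the knockdown of the target was not checked.

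All 42 CHH-only genes had an FDR below 0.05 in the authors' deposited tables, but so did 577 of the 577 listed genes (100%), because the tables hold only genes past that threshold. The 2 members nearest to it were Potri.006G168600 with an FDR of 0.0498 and the glycosyltransferase gene Potri.001G399500 with an FDR of 0.0489 in the authors' deposited table. Genes just outside the threshold were not analysed here.

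Negative logFC values were the more frequent among CHH-only genes, and the 4 genes of the photosynthesis and chloroplast list were on that side. Of the 42 genes, 26 had a negative logFC in the authors' deposited table (61.9%, exact Clopper-Pearson 95% interval 45.6 to 76.4) and 16 a positive one (38.1%, 23.6 to 54.4). Among all listed genes 51% were negative and 49% positive, values that lie inside those intervals. Genes are not independent replicates, and these intervals cover counting error only. The median absolute logFC was 1.00 over the CHH-only genes (range 0.69 to 2.43) and 0.99 over all 577 genes in the authors' deposited tables.

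**Figure D1:**
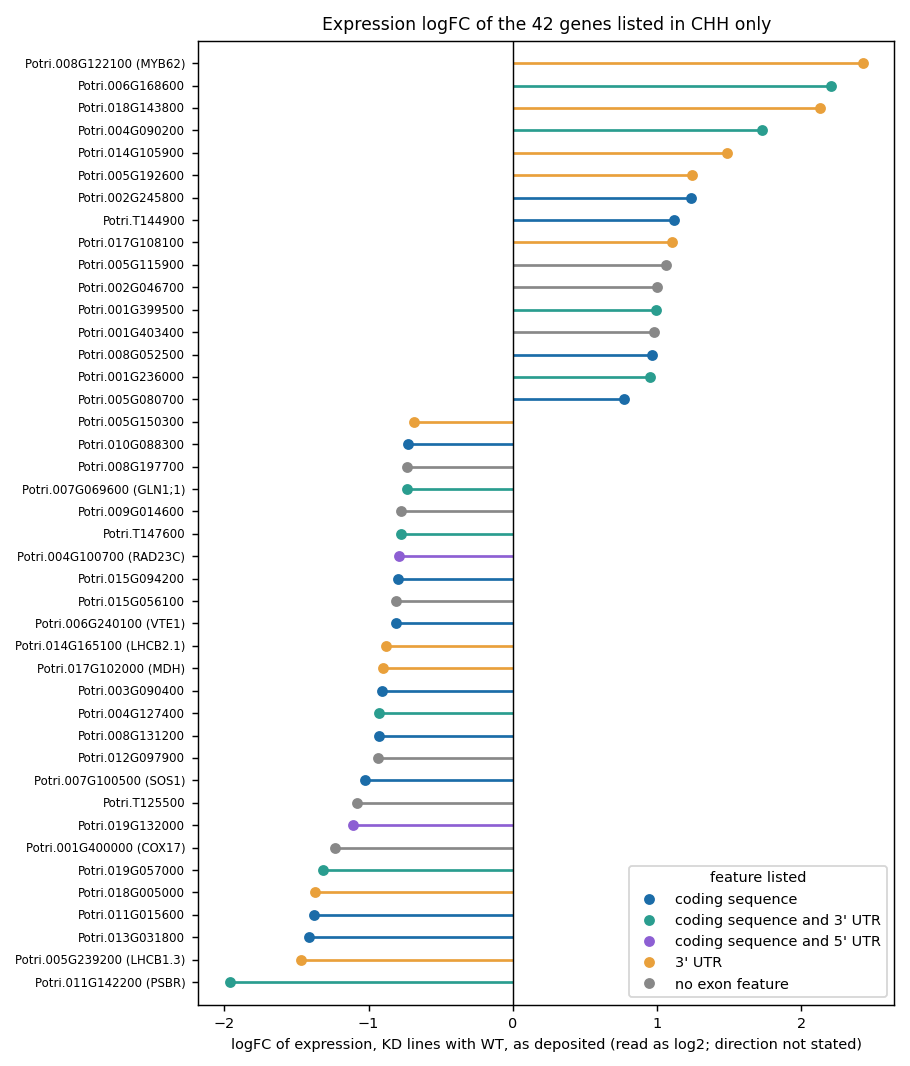
Expression logFC of each of the 42 CHH-only genes as deposited (horizontal axis, read as log2, direction not stated), sorted from the most positive to the most negative. Colour gives the feature listed for the gene; 16 genes lie right of 0 and 26 left of it, and the values run between -1.96 for PSBR and 2.43 for MYB62.

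The most negative values, those of PSBR and LHCB1.3, belonged to photosystem II genes. Photosystem II splits water in the thylakoid membrane, and its light is gathered by chlorophyll-binding antenna proteins. PSBR (Potri.011G142200, chromosome 11, 16351155 to 16353448), a small subunit needed for stable assembly of the oxygen-evolving side, had a logFC of -1.96 at a logCPM of 4.96 in the authors' deposited table. Its FDR of 8.07e-13 was the lowest of all 577 listed genes in the authors' deposited tables. The antenna gene LHCB1.3 (Potri.005G239200, chromosome 5, 24578904 to 24582455) had -1.46 at a logCPM of 8.72, with an FDR of 2.36e-10 in the authors' deposited table. The antenna gene LHCB2.1 (Potri.014G165100, chromosome 14, 13074371 to 13076038) had -0.88 at a logCPM of 6.04, with an FDR of 0.00274 in the authors' deposited table. In size this was less than the median of the negative CHH-only genes, 0.92. All 3 had a CHH region over the 3' UTR, and for PSBR coding segments 4 to 5 were listed as well.

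The list of photosynthesis and chloroplast genes held 4 CHH-only genes, all of them with a negative logFC. The fourth was VTE1 (Potri.006G240100), the tocopherol cyclase of vitamin E synthesis, with a logFC of -0.81 at a logCPM of 4.71 in the authors' deposited table. Over all listed genes the same list held 10 genes, 9 negative and 1 positive, with a median logFC of -0.85 in the authors' deposited tables, against -1.17 for the 4 CHH-only genes. Without those 4, it held 5 negative genes and 1 positive gene, with a median of -0.79. Antenna genes are members of families with near-identical copies, and how the authors' counting split reads between copies is not known. In pooled buds, a difference in the number of cells of a type and one in RNA per cell cannot be told apart. Lists for other tissues of the bud held 0 CHH-only genes, but their listed genes were mostly negative too. All 4 listed meristem and homeobox genes were negative (0 positive), with a median logFC of -0.94 in the authors' deposited tables. The 5 listed cell wall genes were 4 negative and 1 positive, with a median logFC of -0.84 in the authors' deposited tables. Their part in the values of the photosynthesis genes was not tested.

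Of the 8 CHH-only genes in the primary and lipid metabolism list, 7 had a negative and 1 a positive logFC. The same list over all listed genes held 14 negative and 8 positive genes of 22 in the authors' deposited tables. Without the CHH-only genes it held 7 negative and 7 positive genes. The cytochrome b-c1 complex subunit 8 gene (Potri.019G132000, chromosome 19, 15747349 to 15749299), part of the complex that passes electrons to cytochrome c, had a logFC of -1.11 at a logCPM of 8.35 and an FDR of 7.98e-06 in the authors' deposited table. COX17 (Potri.001G400000), a copper chaperone for cytochrome c oxidase, had -1.23 at a logCPM of 2.61 in the authors' deposited table. Sugar breakdown was represented by a phosphofructokinase family gene (Potri.011G015600), with -1.38 at a logCPM of 2.22 in the authors' deposited table. MDH (Potri.017G102000), a malate dehydrogenase that interconverts malate and oxaloacetate, had -0.90 at a logCPM of 5.76 in the authors' deposited table. For GLN1;1 (Potri.007G069600), a glutamine synthetase that assimilates ammonium, the authors' deposited table gave -0.74 at a logCPM of 6.56.

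The positive gene of the primary and lipid metabolism list was a dolichol-phosphate mannosyltransferase-related gene (Potri.002G245800) with a logFC of 1.24 in the authors' deposited table, a class that provides mannose for protein glycosylation. VTE1 belongs to this list too, and so does a polyketide cyclase and lipid transport superfamily gene (Potri.008G131200) with -0.93 at a logCPM of 7.58 in the authors' deposited table.

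The 3 redox genes were negative as well. The authors' deposited table gave -1.37 with an FDR of 2.01e-05 for a gene annotated as selenium binding (Potri.018G005000). A ferredoxin-like gene (Potri.003G090400), from a family of iron-sulphur electron carriers, had -0.91 in the authors' deposited table. The 2-oxoglutarate and iron-dependent oxygenase gene Potri.008G197700 had -0.73 in the authors' deposited table. Over all listed genes the redox list was 11 negative to 2 positive in the authors' deposited tables.

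Translation genes were split 3 negative to 1 positive. The ribosomal protein S26e gene (Potri.019G057000, chromosome 19, 8859383 to 8861384), coding for a small subunit protein, had the highest logCPM of the CHH-only genes, 9.23, and a logFC of -1.32 with an FDR of 1.98e-08 in the authors' deposited table. The S19e gene (Potri.015G056100) had -0.81 and the elongation factor EF1B gene (Potri.015G094200), whose product recharges the factor that brings tRNA to the ribosome, -0.80 in the authors' deposited table. The L7Ae/L30e family gene Potri.005G080700, for a large subunit protein, went the other way with 0.77 in the authors' deposited table. Ribosomal protein genes also have close copies, so the share of reads of each copy is uncertain. All listed translation genes together were 38 negative and 4 positive of 42 in the authors' deposited tables.

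Genes of protein folding, turnover and transport were few and negative. A TCP-1/cpn60 chaperonin gene (Potri.T147600), of the cytosolic folding machine, had -0.78 in the authors' deposited table. RAD23C (Potri.004G100700), which carries ubiquitinated proteins to the proteasome and takes part in DNA excision repair, had -0.79 at a logCPM of 7.25 in the authors' deposited table. For SOS1 (Potri.007G100500), named after the sodium-proton exchanger of salt tolerance in Arabidopsis, the authors' deposited table gave -1.02 at a logCPM of 3.06. The SOS1 gene model spans only 1014 bases, against a median of 3299 bases for CHH-only genes. A Sec14p-like phosphatidylinositol transfer gene (Potri.010G088300), from proteins that move phospholipids between membranes, had -0.73 in the authors' deposited table. Over all listed genes, the chaperone list was 1 negative of 3, the ubiquitin and protease list 14 negative of 29, the cell cycle and DNA repair list 5 negative of 13 and the transport list 6 negative of 12 in the authors' deposited tables. The 1 negative chaperone gene was the CHH-only one. RAD23C was the CHH-only member of the ubiquitin and the cell cycle and repair lists, and the phosphofructokinase gene that of the kinase list, which was 5 negative of 17.

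The positive side was led by a transcription factor gene and a gene without annotation. MYB62 (Potri.008G122100, chromosome 8, 7951103 to 7953097), in Arabidopsis a MYB factor of the response to phosphate starvation, had the largest logFC, 2.43, at a logCPM of 1.52 with an FDR of 0.0187 in the authors' deposited table. Potri.006G168600 followed with 2.20 at a logCPM of 1.35, the lowest level of the CHH-only genes in the authors' deposited table. The zinc finger C-x8-C-x5-C-x3-H gene Potri.005G115900, a family that binds RNA or DNA, had 1.06 in the authors' deposited table. These 2 genes were the CHH-only members of the transcription factor list, both positive, whereas 7 of all 14 listed genes on it were positive in the authors' deposited tables.

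Organelle RNA and membrane traffic genes followed. Pentatricopeptide repeat proteins bind RNA in plastids and mitochondria, and both CHH-only genes of the family were positive. Potri.018G143800 had a logFC of 2.13 at a logCPM of 2.32 with an FDR of 0.00180 in the authors' deposited table. Potri.017G108100 had 1.10 at a logCPM of 4.88 with an FDR of 0.00217 in the authors' deposited table. All 7 pentatricopeptide repeat genes listed in any of the authors' deposited tables were positive. A syntaxin/t-SNARE gene (Potri.004G090200), from the proteins that drive membrane fusion, had 1.73 at a logCPM of 2.14 in the authors' deposited table. With the Sec14p-like gene it made up the vesicle trafficking list among CHH-only genes, while all listed genes on it were 3 positive of 4.

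The other positive genes had smaller values or little annotation. A gene of unknown function with a DUF793 domain (Potri.005G192600) had 1.24, with the lowest FDR of the positive genes, 0.00125, in the authors' deposited table. A P-loop nucleoside triphosphate hydrolase gene on an unplaced scaffold (Potri.T144900) had 1.12 in the authors' deposited table. The Core-2/I-branching glycosyltransferase gene Potri.001G399500 had 0.99 and the WD40 repeat gene Potri.001G403400 had 0.98 in the authors' deposited table. Without annotation text were Potri.014G105900 (1.49), Potri.002G046700 (1.00), Potri.008G052500 (0.97) and Potri.001G236000 (0.95) in the authors' deposited table. On the negative side, text was likewise missing for Potri.013G031800 (-1.41), Potri.T125500 (-1.08), Potri.012G097900 (-0.93), Potri.004G127400 (-0.93) and Potri.005G150300 (-0.69) in the authors' deposited table. Potri.009G014600, of an uncharacterised protein family, had -0.78 in the authors' deposited table. In all, 32 of the 42 genes had annotation text and 39 had an Arabidopsis counterpart in the tables. Of 18 lists of gene functions, 12 held a CHH-only gene. The 6 without one were chromatin and DNA methylation, RNA binding and processing, hormone, cell wall, disease resistance, and meristem and homeobox genes, lists that held 4, 24, 1, 5, 13 and 4 of the 577 genes.

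The sign of the logFC went with the expression level. The median logCPM was 3.52 for the 16 positive CHH-only genes (range 1.35 to 5.72) and 5.68 for the 26 negative ones (2.22 to 9.23) in the authors' deposited table. The ranges overlap between 2.22 and 5.72. All 10 CHH-only genes with a logCPM of at least 6 were negative (0 positive), and of the 140 listed genes at that level 12 were positive in the authors' deposited tables. Below a logCPM of 3, 5 of the 8 CHH-only genes were positive in the authors' deposited table. All listed genes were not counted at that level, but 70.5% of those below the median logCPM of all listed genes were positive. Spearman's rho between logFC and logCPM was -0.44 across the 42 genes and -0.43 across all 577, which share the same libraries. The median logCPM of CHH-only genes was 4.79, against 4.81 for all listed genes in the authors' deposited tables. The tables keep only genes past the FDR, and the smallest absolute logFC listed was larger at low than at high logCPM, as the plot of logFC against logCPM shows.

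**Figure D2:**
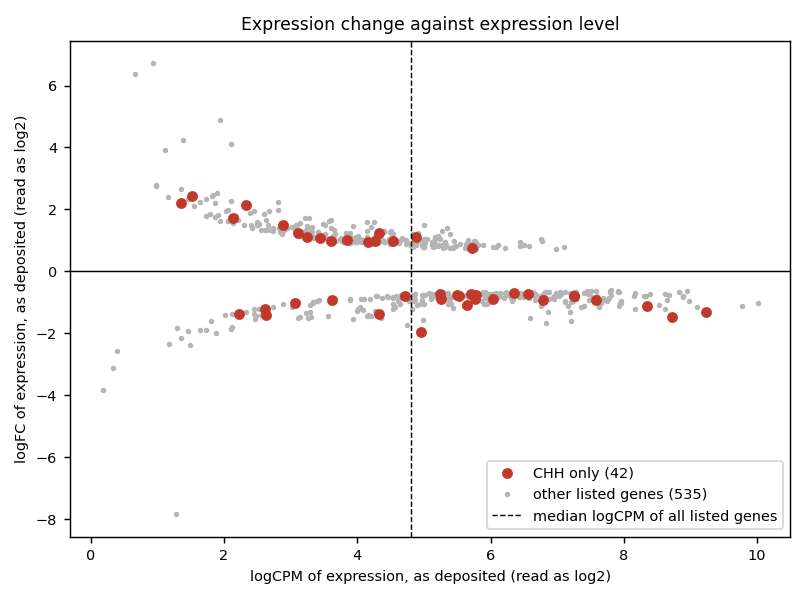
Deposited logFC (vertical axis) against deposited logCPM (horizontal axis), both read as log2, for the 42 CHH-only genes (red) and the other 535 listed genes (grey); the dashed line is the median logCPM of all listed genes, 4.81. No listed gene lies nearer to 0 than a logFC of 0.62 in size; all CHH-only genes above a logCPM of 6 lie below 0.

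Split at that median, the CHH-only genes were positive in 2 of 21 at or above it (9.52%, exact 95% interval 1.17 to 30.4) and in 14 of 21 below it (66.7%, 43.0 to 85.4). The 2 were the pentatricopeptide repeat gene Potri.017G108100 and the ribosomal gene Potri.005G080700. All listed genes were positive in 80 of 289 at or above it (27.7%, 22.6 to 33.2) and in 203 of 288 below it (70.5%, 64.9 to 75.7), shares that lie inside the intervals of CHH-only genes. The other 81 genes of the CHH table, which have another context or a promoter region as well, were positive in 16 of 35 at or above it (45.7%, 28.8 to 63.4) and in 31 of 46 below it (67.4%, 52.0 to 80.5). CHG-only genes, chosen by the matching rule, were positive in 5 of 38 at or above it (13.2%, 4.41 to 28.1) and in 21 of 29 below it (72.4%, 52.8 to 87.3). CG-only genes were positive in 38 of 132 at or above it (28.8%, 21.2 to 37.3) and in 96 of 126 below it (76.2%, 67.8 to 83.3). At higher expression the interval of CHH-only genes overlapped that of each of these groups, for the other CHH genes between 28.8% and 30.4%. The differences were not tested, since genes of one set of libraries are not replicates.

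**Figure D3:**
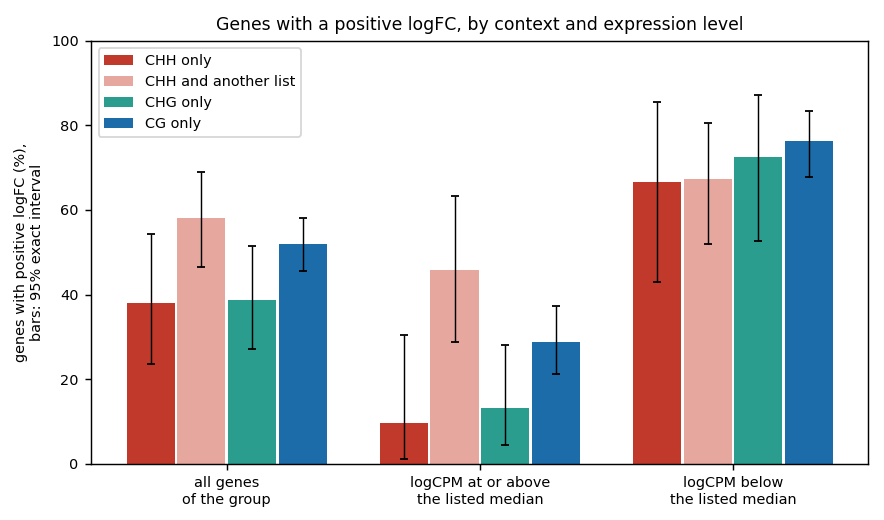
Percent of genes with a positive logFC (vertical axis) for CHH-only genes, CHH genes with another context or a promoter region, CHG-only genes and CG-only genes, over all genes of the group and on either side of the median logCPM of all listed genes. Error bars are exact 95% intervals for counting error; at or above the median the values are 9.52%, 45.7%, 13.2% and 28.8%, and below it all 4 lie between 66.7% and 76.2%.

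The FDR values of negative genes were lower than those of positive ones. An FDR below 0.01 was given for 18 CHH-only genes (14 negative and 4 positive, or 22.2% positive) in the authors' deposited table, and for 42.6% of all listed genes. Those 246 listed genes were 146 negative and 100 positive (40.7% positive) in the authors' deposited tables. Below 0.001 there were 8 CHH-only genes, all negative (0 positive), and 18.2% of all listed genes. Those 105 listed genes were 76 negative and 29 positive (27.6% positive) in the authors' deposited tables. They were PSBR, LHCB1.3, the S26e gene, the cytochrome b-c1 subunit 8 gene, the selenium binding gene, Potri.T125500, the lipid transport gene Potri.008G131200 and Potri.004G127400. By size of the logFC the balance was different, with 11 positive and 10 negative CHH-only genes at an absolute value of at least 1, a size that 47.8% of all listed genes reached. Over all listed genes 31.4% had a logFC of 1 or more, and 16.5% of -1 or less.

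Coding sequence was the feature listed for most CHH-only genes, followed by the 3' UTR. Coding sequence was listed for 23 of 42 genes (54.8%, exact 95% interval 38.7 to 70.2) in the authors' deposited table, against 69.1% of all 524 transcribed region genes. For the 524 genes, here and below, a feature counted if it was listed in any context. Genes with several contexts thus had more ways to have a feature listed than CHH-only genes. A UTR was listed for 21 of 42 (50%, 34.2 to 65.8), against 49% of all. The 3' UTR was listed for 19 genes (45.2%, 29.8 to 61.3) and the 5' UTR for 2 (4.76%, 0.582 to 16.2). No coding sequence and no UTR was listed for 9 genes (21.4%, 10.3 to 36.8), against 13.9% of all, which leaves introns among the parts of those transcripts. Feature lengths were not taken into account, so the shares show no preference for a feature.

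The 3' UTR was listed for 45.2% of CHH-only genes and for 34.0% of all 524 transcribed region genes (29.9 to 38.2), a share inside the interval of CHH-only genes. The 5' UTR was listed for 4.76% of CHH-only genes and for 17.0% of all (13.9 to 20.5). The latter share lies above the upper bound of the CHH-only interval, but the intervals overlap. The membership rule dropped genes with a promoter region, which the 524 genes keep, so a gene whose region reached the promoter could be left out. With the 4 such CHH genes kept, a UTR of either kind was listed for 54.3% (25 of 46). The part of the rule in the low 5' UTR share was not tested. By group, the 3' UTR was listed for 23.5% of the other 81 CHH genes (14.8 to 34.2), 37.3% of 67 CHG-only genes (25.8 to 49.99) and 29.5% of 258 CG-only genes (24.0 to 35.4). The 5' UTR was listed for 23.5% of the other CHH genes (14.8 to 34.2), 11.9% of CHG-only genes (5.30 to 22.2) and 16.3% of CG-only genes (12.0 to 21.4). The intervals of CHH-only genes overlap those of each of these groups for both features, and the differences were not tested. Genes with several contexts may hold several regions, and region numbers are not in the tables.

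**Figure D4:**
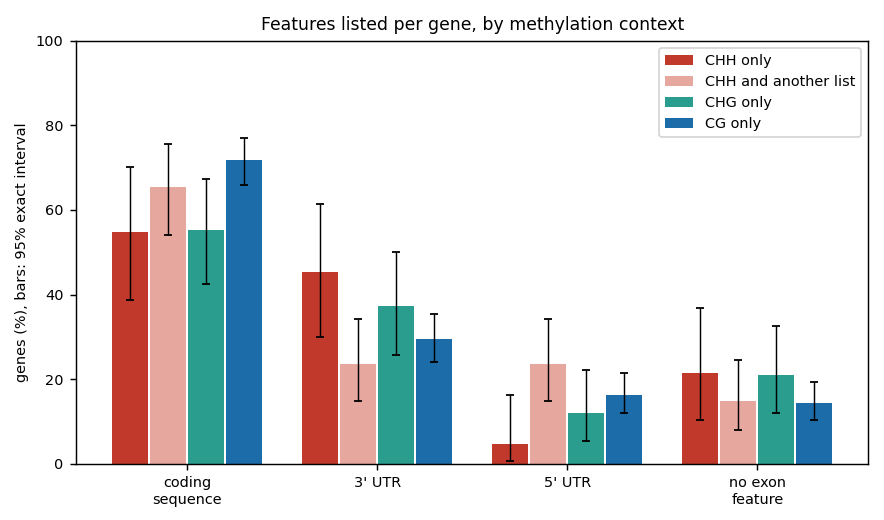
Percent of genes for which each feature is listed (vertical axis) in CHH-only genes, CHH genes with another context or a promoter region, CHG-only genes and CG-only genes; a gene can have several features. Error bars are exact 95% intervals for counting error; the 5' UTR bar is at 4.76% for CHH-only genes and 23.5% for the other CHH genes.

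By combination, 12 CHH-only genes had coding sequence alone, 10 had the 3' UTR alone, 9 had coding sequence with the 3' UTR, 2 had coding sequence with the 5' UTR and 9 had none of these. The 10 genes with the 3' UTR alone were 5 positive and 5 negative in the authors' deposited table, among them MYB62, both pentatricopeptide repeat genes, LHCB1.3, LHCB2.1 and MDH. For the same combination, other CHH genes were 4 positive and 3 negative, CHG-only genes 5 and 6, and CG-only genes 11 and 13. The 12 genes with coding sequence alone were 4 positive and 8 negative. Among the other CHH genes, the 31 with coding sequence alone were 25 positive and 6 negative. The 20 CHG-only genes with coding sequence alone were 9 positive and 11 negative, and the 105 CG-only genes with it were 56 positive and 49 negative in the authors' deposited tables. The 2 genes with the 5' UTR were RAD23C and the cytochrome b-c1 subunit 8 gene, and both were negative. With coding sequence and the 5' UTR, other CHH genes were 3 positive and 7 negative, CHG-only genes 2 and 1, and CG-only genes 16 and 13. The 9 genes with no listed exon feature were 3 positive and 6 negative, including COX17, the S19e gene and the zinc finger gene Potri.005G115900. Without an exon feature, other CHH genes were 7 positive and 5 negative, CHG-only genes 4 and 10, and CG-only genes 15 and 22.

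The listed exon features lay mostly towards the 3' end. For the 33 CHH-only genes with one, the midpoint of the stretch from the first to the last listed base had a median position of 82.5% of the gene span, counted from the 5' end. It fell in the last 25% of the gene for 19 of 33 (57.6%, exact 95% interval 39.2 to 74.5) and in the first 25% for 4 (12.1%, 3.40 to 28.2). Among the other CHH genes with a single gene span, the median position was 48.1%, with 14 of 67 in the last 25% (20.9%, 11.9 to 32.6) and 22 in the first 25% (32.8%, 21.8 to 45.4). For CHG-only genes the median was 70.3%, with 22 of 50 in the last 25% (44.0%, 30.0 to 58.7) and 8 in the first 25% (16.0%, 7.17 to 29.1). For CG-only genes it was 59.2%, with 73 of 207 in the last 25% (35.3%, 28.8 to 42.2). In the first 25% there were 42 CG-only genes (20.3%, 15.0 to 26.4). Both first 25% shares lie inside the interval of CHH-only genes. The intervals of CHH-only genes and other CHH genes for the last 25% do not overlap. They cover counting error only, the comparison was made after the positions were seen, and it was not tested. A region itself may lie anywhere within a listed feature. CHH-only genes exclude genes with a promoter region, whereas 10 of the other 81 CHH genes have one. With the 4 CHH genes dropped for a promoter region kept, 20 of 37 (54.1%) had their midpoint in the last 25%. The position also partly restates the listing of the 3' UTR, the last part of a transcript. Of the 19 CHH-only genes with a 3' UTR listed, 15 had the midpoint of that UTR in the last 25%.

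**Figure D5:**
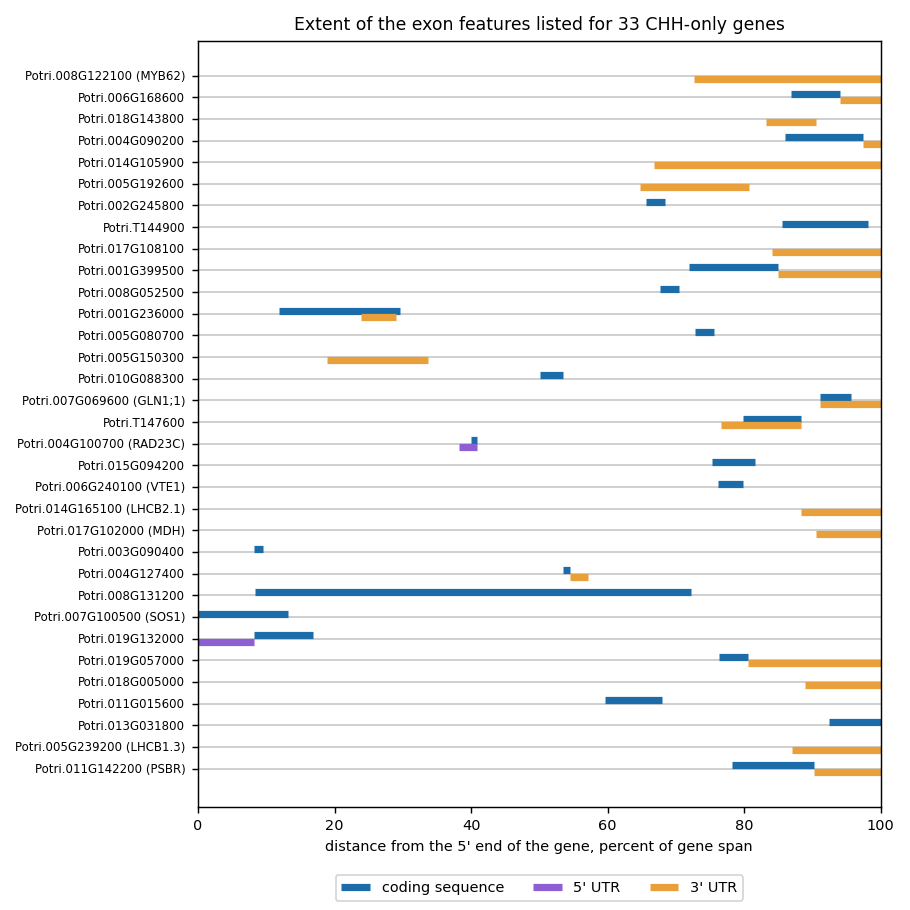
Stretch covered by the listed coding sequence (blue), 5' UTR (purple) and 3' UTR (orange) along each of the 33 CHH-only genes with an exon feature, in percent of the gene span from the 5' end (horizontal axis), sorted by logFC from the most positive at the top. Each stretch runs from the first to the last listed base; 19 of the 33 genes have their midpoint in the last 25%.

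The members show what these positions look like in single genes. In PSBR the listed coding segments covered 16352951 to 16353224 and the 3' UTR 16353225 to 16353448 on chromosome 11, so that the listed stretch reached the end of the gene. The 3' UTR of LHCB1.3 was listed from 24578904 to 24579366 on chromosome 5, on the minus strand, and shared by all 6 of its listed transcripts. In MYB62 the 546 bases of the 3' UTR (chromosome 8, 7952552 to 7953097) were the only feature. The S26e gene had its last coding segment, segment 5 of 84 bases, and its 390-base 3' UTR listed. Listed exon features of any kind reached the gene end in 14 of 33 CHH-only genes (42.4%, 25.5 to 60.8). The same held for 17 of 50 CHG-only genes (34.0%, 21.2 to 48.8) and 14 of 67 other CHH genes (20.9%, 11.9 to 32.6). For CG-only genes it was 50 of 207 (24.2%, 18.5 to 30.6), and the interval of CHH-only genes overlaps each of these. Of the 19 CHH-only genes with a 3' UTR, 13 had it listed up to the last base of the gene.

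For the other 6 genes the listed 3' UTR stopped short of the end of the gene, and for some of them it was that of 1 transcript among several. In Potri.001G236000, a gene of 8351 bases with 5 listed transcripts, the 3' UTR of 1 transcript lay 1988 bases from the 5' end, within the stretch of listed coding sequence. In Potri.004G127400 a 33-base coding segment and an 87-base 3' UTR of 1 of 4 listed transcripts were hit. For Potri.005G150300 the 3' UTR of 1 of 3 listed transcripts was listed, at 18.9% to 33.7% of the gene.

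The listed features of 4 genes had their midpoint in the first 25% of the gene, and one of these was Potri.001G236000, at 20.7%. The cytochrome b-c1 subunit 8 gene had its 160-base 5' UTR (chromosome 19, 15749140 to 15749299) and coding segment 1 listed. SOS1 had coding segment 1 listed from the first base of its gene model. The ferredoxin-like gene had coding segment 2 of 64 bases listed, 446 bases from the 5' end, in all 13 listed transcripts. RAD23C also had a 5' UTR listed, but its midpoint lay at 39.5% of the gene. In this gene of 11071 bases with 7 listed transcripts, the stretch began 4226 bases from the 5' end and held the 5' UTR of 3 transcripts and coding sequence of 5. Coding segment 1 was among those listed for 5 of the 23 genes with coding sequence.

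The gene spans of CHH-only genes were short at the median. Their median gene span, introns included, was 3299 bases (exact 95% interval of the median 2566 to 3886, range 968 to 11097), against 4467 bases for the other CHH genes (3615 to 5865) and 4359 bases for the other 482 transcribed region genes (4017 to 4649). CHG-only genes had a median of 4387 bases (3101 to 5205) and CG-only genes 4154.5 bases (3829 to 4563). The interval of CHH-only genes overlaps those of the other CHH, CHG-only and CG-only genes. It does not overlap that of the other 482 transcribed region genes. Those 482 include genes with several contexts or a promoter region, which the rules for CHH-only, CHG-only and CG-only genes leave out. All CHH-only genes had a single gene span, whereas the comparison groups also include genes without a single span. The medians of those groups are thus not medians of single spans alone. The part of this in their greater length was not tested. None of the differences in median span was tested. The 16 positive CHH-only genes had a median span of 3822.5 bases (2414 to 6041) and the 26 negative ones 3203.5 bases (2294 to 3886), intervals that overlap. The longest were Potri.008G052500 with 11097 bases and RAD23C, and the shortest Potri.013G031800 with 968 bases and SOS1.

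The genes were spread over the genome. They lay on 18 chromosomes (39 genes) and unplaced scaffolds (3 genes), 19 on the plus and 23 on the minus strand. Chromosome 5 held the most, 5 genes, followed by chromosomes 1 and 8 with 4 each. The closest pair was the glycosyltransferase gene Potri.001G399500 and COX17 on chromosome 1, separated by 65.5 kb, with logFC values of 0.99 and -1.23 in the authors' deposited table. The WD40 repeat gene Potri.001G403400 lay 277 kb beyond COX17, with 0.98 in the authors' deposited table, so the 3 neighbouring members did not share a sign.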

How the data were processed

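Apical buds of KD2, KD5 and WT gave 1 bisulfite library each, with Illumina sequencing per the labels' protocols. The submitters' processing notes name Bismark, a bisulfite read aligner, and methylKit, which calls methylation differences. Their versions, the genome build and any coverage minimum were not given in the sources used here. Potri identifiers are those of Populus trichocarpa gene models, which carry a Phytozome tag in the tables, and coordinates are printed as deposited.

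The files are 6 tables of the authors' own comparisons, and no value per library was used. The logFC and logCPM that the authors deposited were treated as log2 values; the expression libraries are not among the 3 samples, and how they were counted is not stated there. The p-value and FDR of expression are the authors', per the file headers. A gene listed in several tables had the same logFC in each.

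Members were found by comparing identifiers over the 6 tables. Shares have exact Clopper-Pearson 95% intervals, and medians exact intervals from order statistics. No test was run, since each genotype is 1 library, the members were chosen by the authors' calls and genes are not replicates. The interval and membership functions were tested on simulated data. Start and end values of features are merged per gene in the tables, so a stretch runs from the first to the last base of a feature. Python 3.11.15, pandas 2.3.3 and scipy 1.17.1 were used.

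The members, lists and comparisons were chosen with earlier results of these data known, and the words that place a gene in a list were set after the annotations were seen. A gene can be in several lists, and the counts of a list over all listed genes include its CHH-only genes. The rule for named genes took the 12 largest and 12 most negative logFC, the 3 highest and 3 lowest logCPM, up to 3 genes per list, genes with coding sequence and a UTR, and the 2 largest FDR. It named 35 genes, and the other 7 were named after their values were seen. No reference genome was used, so no sequence is shown. Alternatives were stricter expression thresholds, other membership rules and means for medians.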

Additional observations from a re-analysis of the deposited data

How the results depend on the processing

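Over 8 summary values and 27 alternatives, 25 alternatives stayed inside the 95% interval of the value reported and 2 did not. Some of the 25 could not differ: counting rows in place of genes and keeping only genes with a single span left the same 42 genes. With an FDR below 0.01 the share of positive genes was 22.2% (4 of 18) in place of 38.1%, and the mean absolute logFC was 1.14 against a median of 1.00. Positive genes were 52.4% (11 of 21) at an absolute logFC of at least 1, and 37.0% (17 of 46) with 4 promoter genes kept. Chosen after seeing the data, a limit at 66.7% of the gene in place of 75% put the listed features of 23 of 33 genes beyond it. That stretch is wider, so its share could not be lower. No paired analysis was possible because each genotype has 1 library and no test was run; leaving out a replicate was not possible for the same reason. Unknown depth and region size limit every statement on methylation here.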

Other observations

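The transcribed region tables end with a second block of gene coordinates that the header does not explain. It was empty for 8 of the 42 CHH-only genes and for 20 of the 123 genes of the CHH table. Of those 8 genes, 6 had a positive and 2 a negative logFC: Potri.006G168600, the zinc finger gene Potri.005G115900, Potri.002G046700, the glycosyltransferase gene Potri.001G399500, the WD40 repeat gene Potri.001G403400 and the ribosomal gene Potri.005G080700 were positive, and GLN1;1 and SOS1 negative. Without them 29.4% of 34 CHH-only genes were positive. These 8 genes were looked at after their values were seen, and what the block stands for was not tested. Over all transcribed region entries the block was empty for 258 of 689. Signs were not counted for genes with an empty block outside the CHH-only genes, so the split of the 8 has no such background.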
